A study of Mus musculus with 33 samples.

Results

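Menin and MLL1 were compared in growing C2C12 myoblasts, a mouse muscle precursor line that divides in rich serum and fuses into myotubes when serum is withdrawn. Of the 33 samples of the series, 4 belonged to this comparison: 2 chromatin immunoprecipitations with an antibody against Menin and 2 with an antibody against MLL1. They were chosen by the factor and the cell state in their titles, and the pooled Menin list and the pooled MLL1 list that the authors deposited were used with them. On the autosomes the pooled lists held 68934 Menin peaks and 8795 MLL1 peaks, 77729 of the 396699 peaks in the 9 pooled or single lists of the series. All 4 samples came from cells growing in 10% fetal bovine serum and collected at about 40% confluency, with no treatment or tag named in the labels, and the chromatin was sheared to about 250 bp. For MLL1 the source label reads Menin, whereas the title (MLL) and the antibody (MLL1) name the factor, and these were used. Whether the replicates are separate cultures is not stated. A p-value over them therefore measures the spread of these samples alone, and that spread may be technical. The main lists compared with them came from growing myoblasts too: Wdr5, MLL3, LSD1 and ING1, the last pulled down by a Flag tag from a stable line that carried the tagged protein. A further 3 lists came from myotubes: ING1, Sin3A and LSD1.

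MLL1 (also known as KMT2A) is a methyltransferase that places methyl groups on lysine 4 of histone H3, largely near promoters. Menin, the product of the Men1 tumour suppressor gene, binds the amino-terminal part of MLL1 and is a subunit of the complexes that MLL1 and its close relative MLL2 build. It helps to bring them to chromatin, and the Hox clusters are their best known targets. Wdr5 is a core subunit shared by all MLL complexes, MLL3 belongs to complexes that lack Menin, LSD1 removes methyl groups from the same lysine, and ING1 reads the trimethylated form.

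A peak here is a stretch of DNA with a left and a right end and no height, fold or significance. The reads behind the lists were not counted in them, so the sequencing depth is unknown. The number and the width of peaks can follow depth and antibody as well as binding. An overlap of 1 bp was enough to count a peak as shared.

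The 2 factors differed first in how much they were found. The Menin list covered 68.1 Mb, or 2.83% of the autosomal span, and the MLL1 list covered 6.34 Mb, or 0.263%. There were 7.84 Menin peaks for each MLL1 peak, and 10.7 bases under Menin for each base under MLL1. Menin peaks were also wider, with a median of 658 bp (quartiles 483 and 1066 bp) against 565 bp (quartiles 415 and 833.5 bp). Domains of 5 kb or more numbered 675 for Menin and 26 for MLL1, and the widest were 48033 bp and 10523 bp.

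The replicate lists kept this order. Menin replicate 1 held 22868 peaks and Menin replicate 2 held 15648, a mean of 19258 ± 5105 (SD, n = 2). MLL1 replicate 1 held 4098 peaks and MLL1 replicate 2 held 460, a mean of 2279 ± 2572 (SD, n = 2). Both Menin lists were longer than both MLL1 lists, by 16979 peaks on average, and the groups did not overlap. The median widths were 685 and 716 bp for Menin and 571.5 and 574.5 bp for MLL1, a difference of 127.5 bp with no overlap. With 4 lists there are 6 arrangements, and the exact permutation test gave a two-sided p = 0.333 for both measures, the smallest it allows, so neither difference could pass a threshold of 0.05. The MLL1 lists differed 8.91-fold from each other in length and the Menin lists 1.46-fold.

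Most MLL1 peaks lay on Menin, while few Menin peaks lay on MLL1. Of the 8795 MLL1 peaks, 6509 or 74% met a Menin peak (exact binomial 95% interval 73.1 to 74.9%, which covers counting error only). Menin covered 2.83% of the autosomes, so MLL1 peaks met it 26.2 times as often as that coverage. In the other direction 5625 of the 68934 Menin peaks, 8.16%, met an MLL1 peak (95% interval 7.96 to 8.37%), 31.0 times the coverage of MLL1. These ratios describe the lists. A peak has width, so it meets a list more often than a single base would. By length, 80.5% of all MLL1 sequence and 7.50% of all Menin sequence were shared, 5.11 Mb in all.

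The share of Menin at MLL1 depended on which Menin peaks were kept. When the Menin list was reduced to as many of its widest peaks as MLL1 had, 39.9% of them met MLL1 and 51.4% of MLL1 peaks met them; this changes number and width at once. The single replicate lists set the same numbers in wide bounds. Of the 460 peaks of MLL1 replicate 2, 447 or 97.2% met the pooled Menin list, against 85.4% of MLL1 replicate 1. Of Menin replicate 1, 21.5% met the pooled MLL1 list, against 29.0% of Menin replicate 2. Between the unions of the replicate lists, 79.7% of MLL1 peaks met Menin and 11.1% of Menin peaks met MLL1. Without MLL1 replicate 1, which leaves the 460 peaks of the other list, these became 97.4 and 1.35%. The Menin share was 17.1% without Menin replicate 1, 12.5% without Menin replicate 2 and 10.9% without MLL1 replicate 2.

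The geometry of shared sites was that of a narrow MLL1 peak inside a broad Menin peak. Of the 6509 MLL1 peaks on Menin, 5087 or 78.2% lay wholly inside 1 Menin peak. For the 6278 with their centre inside a Menin peak, that Menin peak was 3.45 times as wide at the median. Of the 6278 MLL1 centres inside a Menin peak, 65.8% fell in its middle 50%, and 7.09% in the outermost 10% at either end. A peak wholly inside another cannot have its centre at the ends, so widths alone keep centres away from them. Whether MLL1 favoured the middle beyond that was not tested. Of the 5625 Menin peaks with MLL1, 4865 held 1 MLL1 peak, 581 held 2 and 179 held 3 or more, up to 13. MLL1 covered a median of 35.8% of such a Menin peak (quartiles 23.3 and 53.2%).

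Width separated shared from unshared sites in both lists. When Menin peaks were ranked by width in 10 classes, the share at MLL1 was 3.67% in the narrowest class and between 1.44 and 5.72% in the next 7. It was 15.2% in the ninth and 45.0% in the widest, which ran from 2004 to 48033 bp. Of the 47 Menin domains of 10 kb or more, 46 met MLL1, as did 489 of the 628 between 5 and 10 kb. The MLL1 list had the same direction from a higher level, with 48.2% at Menin in its narrowest class and 99.1% in its widest. A wide peak can meet more of any list by its size alone.

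**Figure D1:**
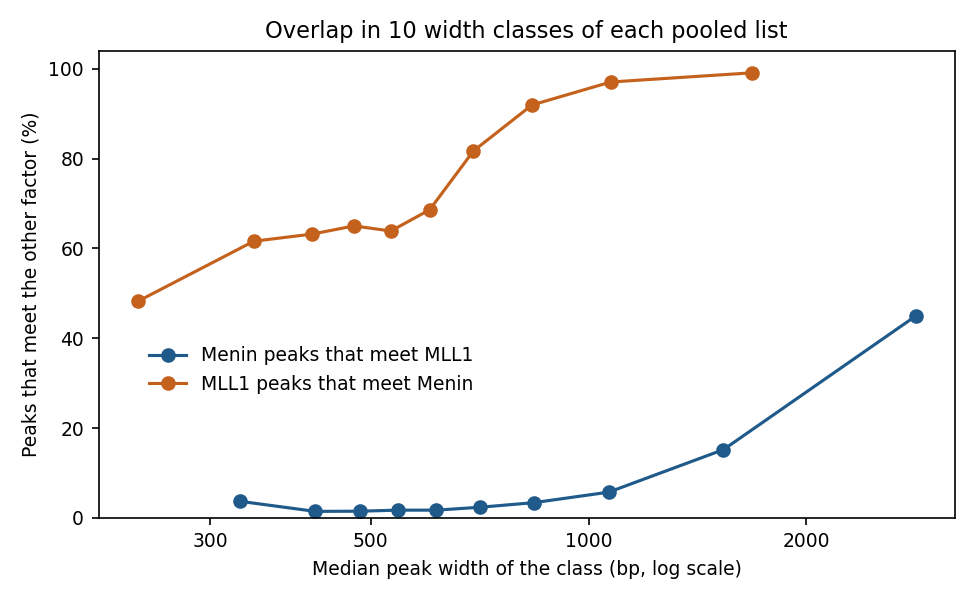
Share of peaks (vertical axis, %) that met the other factor, by the median width of the class (horizontal axis, bp, log scale), with each pooled list split into 10 classes of equal number. Menin peaks reach 45.0% only in the widest class, while MLL1 peaks start at 48.2% and reach 99.1%.

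Overlap was also higher where a factor had been found in both of its own replicate lists. Menin peaks met by neither Menin replicate list numbered 48951, 71.0% of the pooled list, and 1.86% of them met MLL1. Of the 11342 met by 1 replicate list 7.49% met MLL1, and of the 8641 met by both 3864 or 44.7% did (95% interval 43.7 to 45.8%). Their median widths were 567, 970 and 2329 bp, so support and width moved together, and their parts were not separated here. For MLL1 the shares at Menin were 65.9% of 5226 peaks met by neither MLL1 replicate, 84.6% of 3245 met by 1, and 99.4% of 324 met by both.

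**Figure D2:**
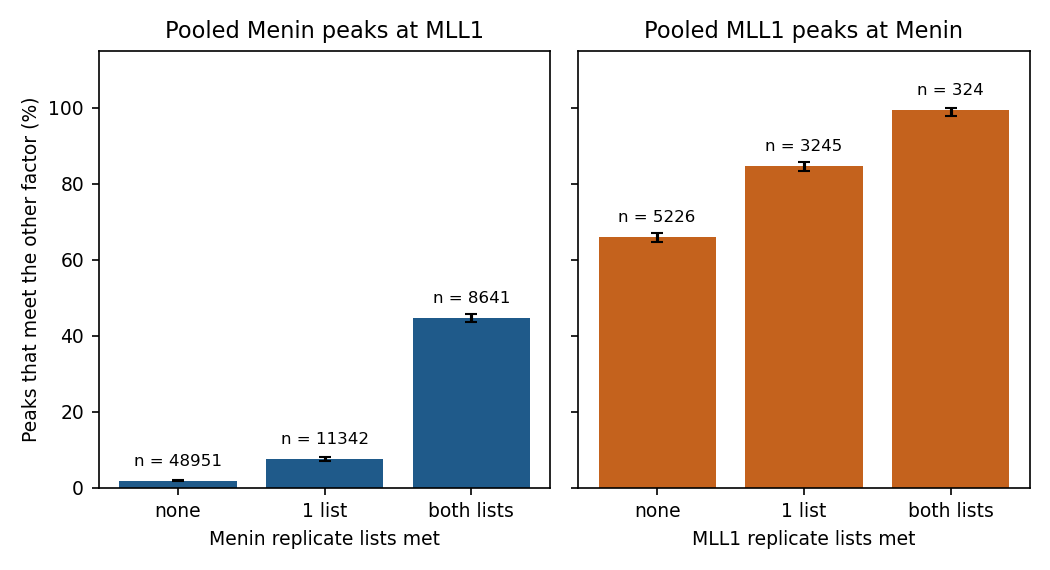
Share of pooled peaks (vertical axis, %) that met the other factor, by the number of the factor's own replicate lists the peak met; error bars are exact binomial 95% intervals and n is the number of peaks. Of Menin peaks met by both Menin lists 44.7% met MLL1, and of MLL1 peaks met by both MLL1 lists 99.4% met Menin.

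The 2 MLL1 peaks of both replicates that met no pooled Menin peak are named here because they are so few, and were chosen after their values were seen. One lay at chr4:3016603-3018261 and was 1659 bp wide, and the other lay at chr9:3027194-3027454 and was 261 bp wide. The first also met MLL3, and the second met none of the 4 other myoblast factors and lay 535 bp from the nearest Menin peak. Both sat among the first positions that any list holds, the lowest of which was 3000000.

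Each MLL1 replicate list met the Menin replicate lists more often than the other MLL1 list, while each Menin list met the other Menin list most often. The lists differ in length, which limits these shares. As deposited, 46.9% of Menin replicate 1 met Menin replicate 2, and 70.2% the reverse. Of MLL1 replicate 1, 8.52% met MLL1 replicate 2, against 76.4% and 71.0% that met Menin replicates 1 and 2. The 8.52% is held low by length, since MLL1 replicate 2 has 460 peaks and MLL1 replicate 1 has 4098. In reverse, 84.1% of MLL1 replicate 2 met MLL1 replicate 1, and 95.4 and 95.9% met Menin replicates 1 and 2. With the 460 widest peaks of each list, 38.7% of MLL1 replicate 1 met MLL1 replicate 2, and 50% and 53.0% met Menin replicates 1 and 2. MLL1 replicate 2 met MLL1 replicate 1 in 49.1% and the Menin lists in 51.5 and 53.3%. Among these widest peaks, the Menin lists met each other in 57.6 and 58.7%, and met the MLL1 lists in 31.5 to 41.7%. Selecting by width favours the wider Menin peaks, whose median was 4169 and 3676 bp in these lists against 1452 and 574.5 bp for MLL1.

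Of the 8 widest Menin domains shared by both Menin replicates and MLL1, 7 were covered by MLL1 over 58.0% or more of their length. This does not describe broad Menin in general: over the 535 Menin peaks of 5 kb or more with MLL1, the median covered was 31.1%. The widest, at chr15:102772057-102820089 (build mm9, 48033 bp), was covered to 95.7 and 97.3% by the 2 Menin replicate lists. MLL1 covered 87.9% of it in 13 peaks, with 79.0% from MLL1 replicate 1 and 30.5% from MLL1 replicate 2. Wdr5 covered 86.6%, ING1 33.0%, MLL3 20.7% and LSD1 5.28%. The second, at chr6:52158998-52192217 (33220 bp), had 86.0% under MLL1, 76.4% under Wdr5 and 31.4% under ING1. These intervals are where the Hoxc and Hoxa clusters of homeobox transcription factor genes are known to lie, as background and not read from an annotation of this build. The widest MLL1 peaks lay inside the same intervals, at chr15:102804296-102814818 (10523 bp) and chr6:52169376-52178204 (8829 bp). Both were covered to 100% by each Menin replicate list.

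The other 6 of the 8 widest shared Menin domains, on chromosomes 15, 12, 1, 4, 15 and 8, were 17304 to 30506 bp wide. At chr15:85482648-85513153 MLL1 covered 84.9% and Wdr5 79.6%, and at chr12:74133188-74156175 each covered 66.5%. These held all 4 other myoblast factors. The domain at chr1:148336622-148357047 had 71.7% under MLL1 with little else: Wdr5 covered 22.5%, MLL3 2.28%, LSD1 under 1% and ING1 none, and MLL1 replicate 2 had no peak there. The domain at chr4:88574286-88592024 had 66.8% under MLL1 and 18.1% under Wdr5, with 32.0% under ING1, 3.41% under LSD1 and no MLL3. The opposite order held at chr15:76019585-76037199, where MLL1 covered 5.64%, with no peak in either MLL1 replicate list, and Wdr5 covered 89.1%. At chr8:87298340-87315643 MLL1 covered 58.0% and Wdr5 30.9%.

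Of the 6 widest MLL1 peaks found in both MLL1 replicates with Menin, 4 lay inside the domains above and 2 elsewhere. The peak at chr16:43500797-43509607 (8811 bp) was covered to 99.8 and 97.3% by the Menin replicates and to 46.6% by Wdr5, with no ING1 and no LSD1. The peak at chr13:63372676-63380578 (7903 bp) had 91.1% under Wdr5 and 7.06% under ING1. Wdr5 thus ran along most of some shared domains and less than 50% of others.

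Broad Menin without MLL1 was rarer, with 140 of the 675 domains of 5 kb or more. Of these 140, 76.4% met Wdr5, 54.3% ING1, 37.9% LSD1 and 63.6% MLL3. Of the 535 with MLL1, 508 met Wdr5, 443 ING1, 297 LSD1 and 278 MLL3 (94.95, 82.8, 55.5 and 52.0%), and these domains were a little wider, with a median of 6165 against 5702 bp. These shares were counted after the named regions had been seen and were not tested. The 6 widest Menin peaks found in both Menin replicates with no peak in any of the 3 MLL1 lists were 7517 to 13056 bp wide. The widest, at chr9:57791571-57804626, was the single Menin domain of 10 kb or more without MLL1. Menin replicates 1 and 2 covered 78.7 and 57.7% of it, in 8 and 5 peaks, and Wdr5, ING1 and LSD1 had no peak there. MLL3, which had the longest list, was the most extensive of the other myoblast factors in 5 of the 6. That list held 208538 peaks, against 58123 for Wdr5. In the widest of the 6, MLL3 covered 4.46% in 1 peak. It covered 70.1% of chr11:97673426-97681116, 72.8% of chr6:42298546-42306931 and 79.0% of chr8:98261568-98269084. MLL3 covered 26.4% of chr8:13663105-13671789 and none of chr19:9064880-9072949. The domain at chr6:42298546-42306931 also held Wdr5 over 39.8%, ING1 over 44.4% and LSD1 over 20.5%, and that on chromosome 19 held Wdr5 over 8.33%, ING1 over 11.1% and LSD1 over 2.99%. Wdr5 was absent from 3 of the 6.

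MLL1 without Menin was short. The 2286 such peaks had a median of 450 bp and a maximum of 2270 bp, against a median of 645 bp for the 6509 with Menin. The 6 widest that no Menin list touched, with those in an MLL1 replicate list taken first, included 4 on chromosome 9 between 3007051 and 3032018 and 1 at chr4:3016603-3018261. The remaining one was chr10:23143321-23144508, 1188 bp wide, which no list of another factor touched. The myotube LSD1 list covered 97.3% of the widest, chr9:3009706-3011975, and 40.0 to 100% of the other 4 near those chromosome starts. Of the 100 widest MLL1 peaks without Menin, 12 lay in the first 1 Mb after the first listed peak of their chromosome, against 2 of the 100 widest with Menin. Leaving out the first 1 Mb of every chromosome left MLL1 at Menin at 74.2% and Menin at MLL1 at 8.13%.

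**Figure D3:**
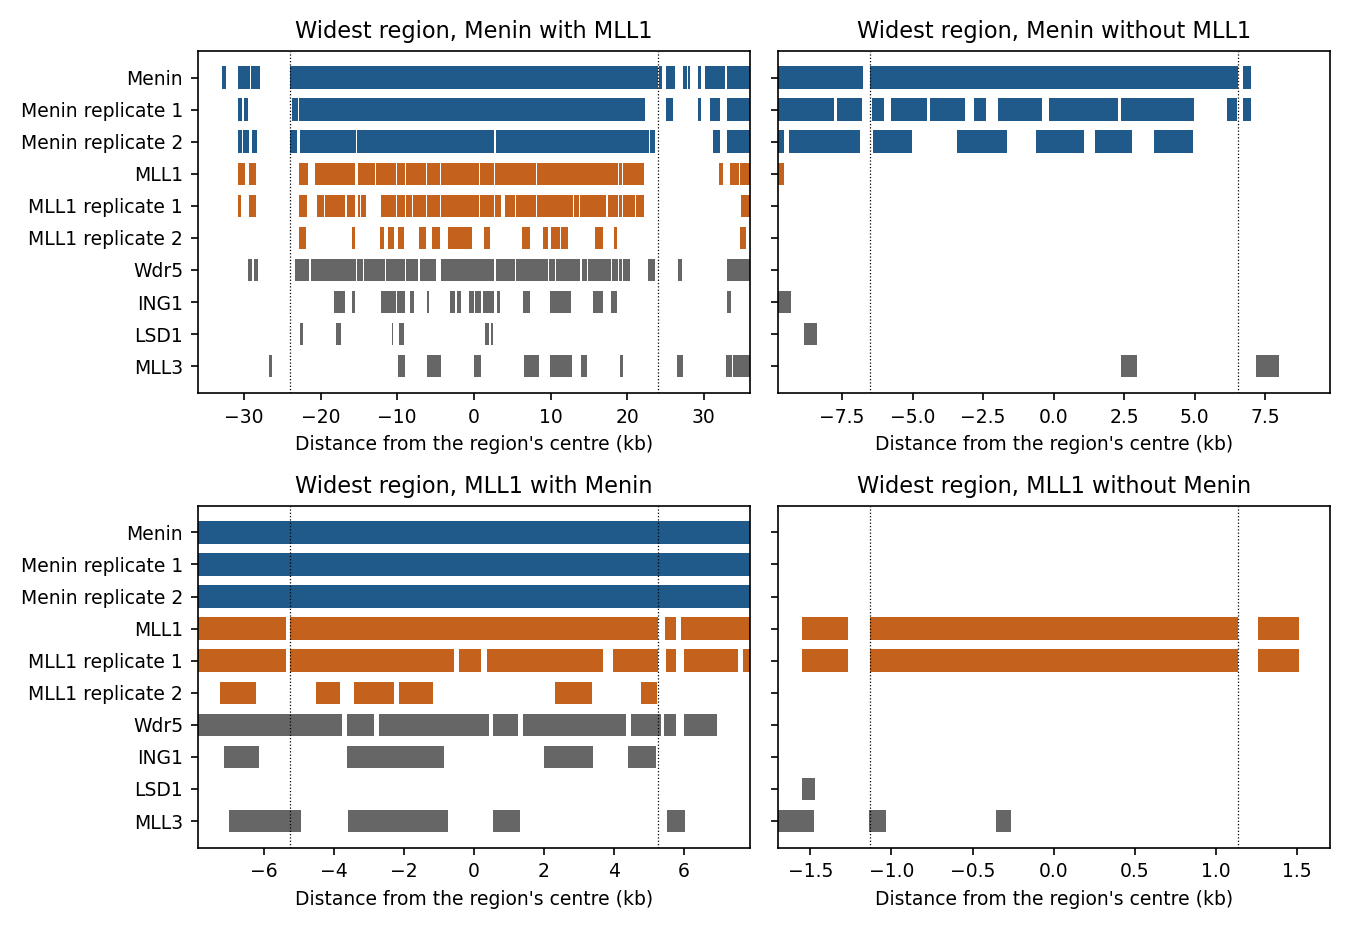
Peaks of 10 lists around the widest region of each of 4 sets, with the distance from the region's centre in kb on the horizontal axis; dotted lines are the region's ends and each bar is a peak. MLL1 tiles the widest shared Menin domain in 13 peaks, and Wdr5, ING1 and LSD1 are empty within the widest Menin domain without MLL1.

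Most unshared MLL1 peaks lay more than 500 bp from Menin. Their median distance to the nearest Menin peak was 9.83 kb (quartiles 2.12 and 32.6 kb). Of the 2286, 231 (10.1%) lay within 500 bp, 886 (38.8%) within 5 kb and 419 (18.3%) beyond 50 kb. The shares that the spacing of Menin peaks alone would give were not computed. Unshared Menin peaks lay 32.7 kb from the nearest MLL1 peak at the median, and 2.06% of them lay within 500 bp. There were 7.84 Menin peaks for each MLL1 peak, so the distances in the 2 directions are not alike.

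The shared and unshared classes were then set against the other myoblast lists. Over the whole MLL1 list 59.2% of peaks met Wdr5, 34.7% met ING1, 17.7% met LSD1 and 17.1% met MLL3. Over the whole Menin list the shares were 24.2% for Wdr5, 9.34% for ING1, 5.26% for LSD1 and 29% for MLL3. The classes are parts of 1 list and no test was made between them, so odds ratios are descriptions.

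Wdr5, the subunit common to MLL complexes, met 77.7% of Menin peaks with MLL1 (4372 of 5625) and 19.4% of those without (12285 of 63309). The odds ratio was 14.5. With the unshared peaks weighted to the same 10 width classes it was 3.74, since 48.3% of unshared peaks would then meet Wdr5. Width still varied within a class. The widest Menin class ran from 2004 to 48033 bp and held 3099 of the 5625 shared peaks. The share at MLL1 was 41.2% from 2000 to 5000 bp and 77.9% from 5000 to 10000 bp. Of MLL1 peaks with Menin 73.2% met Wdr5, against 19.6% of those without. That odds ratio was 11.2, or 6.89 within width classes. When both lists were limited to peaks of both replicates, the odds ratio for the Menin list was 10.6. The class with MLL1 then needed an MLL1 peak of both replicates and held 283 Menin peaks, against 8358 without. The pooled MLL1 list met 3864 of the 8641 Menin peaks of both replicates. Most of these 3864 thus fell in the class without. For the MLL1 list the odds ratio was 24.0. It rested on 12 peaks without a Menin peak of both replicates, of which 7 met Wdr5. The pooled Menin list met 322 of the 324 MLL1 peaks of both replicates. Over the whole lists the direction held on each of the 19 autosomes, for Menin and for MLL1. Menin, MLL1 and Wdr5 were all present at 4762 MLL1 peaks, 54.1% of that list. MLL1 with Menin and no Wdr5 made up 19.9%, MLL1 with Wdr5 and no Menin 5.11%, and MLL1 with neither 20.9%. In the Menin list 74.0% of peaks had neither MLL1 nor Wdr5, and their median width was 596 bp against 2533.5 bp for the 4372 with both.

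ING1 and LSD1 met shared sites more often than unshared ones, by an amount that depended on width and on how the lists were limited. ING1 met 51.5% of Menin peaks with MLL1 and 5.60% of those without (odds ratio 17.9, or 2.91 within width classes). Of MLL1 peaks with Menin 46.0% met ING1, against 52 of 2286 or 2.27% without (odds ratio 36.6, or 19.9 within width classes). LSD1 met 29.8 and 3.08% of Menin peaks with and without MLL1, and 23.7 and 0.831% of MLL1 peaks with and without Menin. Its odds ratios were 13.4 and 37.0, and 2.15 and 20.03 within width classes. With both lists limited to peaks of both replicates, the odds ratios for Menin with against without MLL1 were 4.23 (ING1) and 1.88 (LSD1). There 46.6 and 31.7% of peaks met LSD1. As above, the class without then includes peaks that met the pooled MLL1 list. For MLL1 with against without Menin the odds ratios were 13.1 and 8.28, with 12 peaks lacking a Menin peak of both replicates. Over the whole lists each direction held on 19 of 19 autosomes. All of Wdr5, ING1 and LSD1 met 24.4% of Menin peaks with MLL1 and 2.04% of those without. The same 3 met 18.5% of MLL1 peaks with Menin and 7 of the 2286 without, 0.306%.

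MLL3, which works in complexes without Menin, differed far less between the classes. It met 30.9% of Menin peaks with MLL1 and 28.9% of those without, higher with MLL1 on 14 of 19 autosomes. The odds ratio of 1.10 (95% interval 1.04 to 1.17 by counting error) turned to 0.72 within width classes. MLL3 met 16.9% of MLL1 peaks with Menin and 17.8% of those without. That odds ratio was 0.94 (95% interval 0.832 to 1.07 by counting error), or 0.81 within width classes. The share was higher with Menin on 10 of 19 autosomes. MLL3 had the longest list, 208538 peaks against 58123 for Wdr5, and both MLL3 and LSD1 had a single list with no replicate check.

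**Figure D4:**
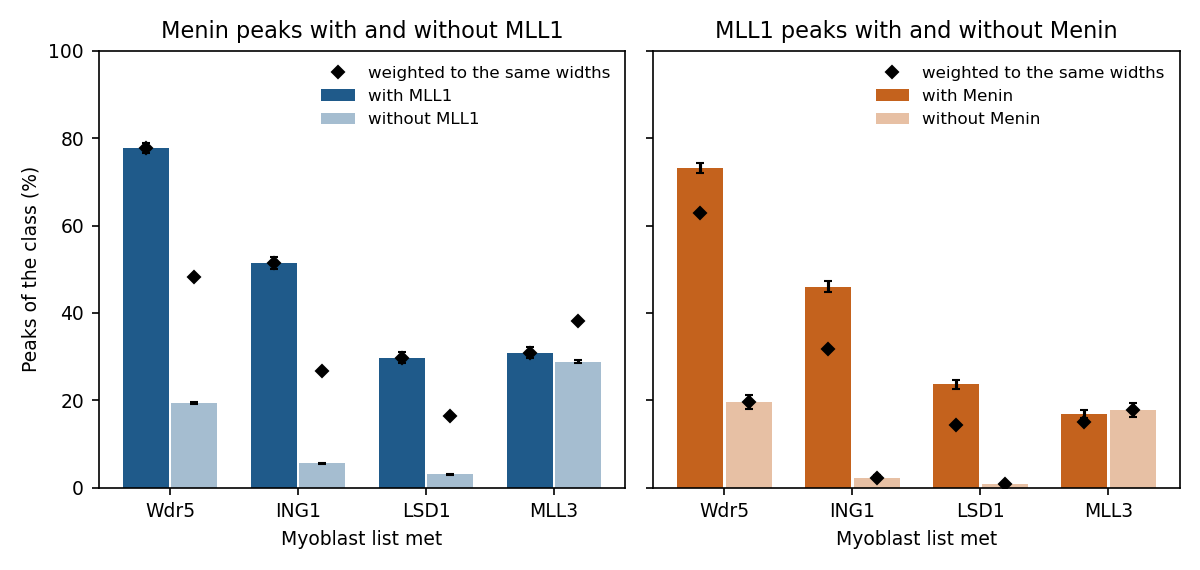
Share of peaks (vertical axis, %) with (dark) and without (pale) the other factor that met each myoblast list. Menin peaks are on the left and MLL1 peaks on the right. Error bars are exact binomial 95% intervals, and diamonds are shares weighted to the same width classes. Wdr5, ING1 and LSD1 are higher at shared peaks in both panels, and MLL3 is at 30.9 against 28.9% on the left and 16.9 against 17.8% on the right.

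At the level of replicate lists, the MLL1 lists met Wdr5, ING1 and LSD1 more often than the Menin lists as deposited. Wdr5 was met by 47.4 and 59.9% of Menin replicates 1 and 2 (53.7 ± 8.82%, SD, n = 2) and by 70.7 and 92.6% of MLL1 replicates 1 and 2 (81.6 ± 15.5%, SD, n = 2). ING1 was met by 25.5 and 37.0% of the Menin lists and by 45.5 and 73.0% of the MLL1 lists. LSD1 was met by 14.0 and 19.6% against 23.3 and 29.3%. The order was the opposite for MLL3, with 25.3 and 22.5% of the Menin lists and 15.4 and 10% of the MLL1 lists. The groups did not overlap for any of the 4 factors. The exact permutation test gave a two-sided p = 0.333 for each, also 0.333 after Benjamini-Hochberg adjustment over the 4, the smallest that 4 lists allow. MLL1 replicate 2, the shortest list, set much of the size: without it the Menin minus MLL1 difference was -17.0 points at Wdr5 in place of -28.0, -14.3 at ING1 in place of -28.0, and -6.46 at LSD1 in place of -9.51.

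The differences at ING1 and LSD1 reversed, and that at Wdr5 nearly vanished, when lists were cut to the length of MLL1 replicate 2. That list holds 460 peaks and stayed whole, while the others kept only their 460 widest. This cut changes list length and peak width together. With the 460 widest peaks of every list, Wdr5 was met by 91.3 and 94.6% of the Menin lists and by 93.0 and 92.6% of the MLL1 lists, a difference of 0.109 points. ING1 was met by 80 and 83.3% against 75.2 and 73.0%, and LSD1 by 51.7 and 56.3% against 42.4 and 29.3%, so that Menin was now higher by 7.5 and 18.2 points. MLL3 kept its direction, with 42.2 and 37.4% of the Menin lists and 22.4 and 10% of the MLL1 lists. The peaks kept were wider for Menin, as given above.

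**Figure D5:**
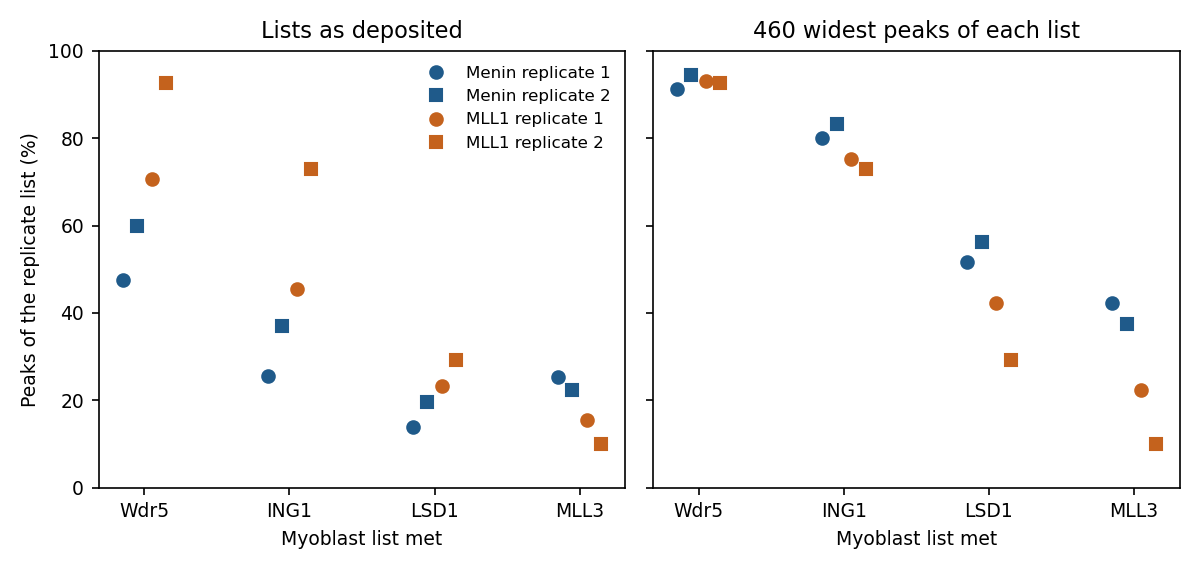
Share of each replicate list (vertical axis, %) that met 4 other myoblast lists, for the lists as deposited on the left and for the 460 widest peaks of each on the right; blue is Menin, orange MLL1, circles replicate 1 and squares replicate 2. MLL1 lies above Menin for Wdr5, ING1 and LSD1 on the left and not on the right, and below it for MLL3 in both.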

How the data were processed

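Peak boundaries (chromosome, left and right end, in base pairs) are the only deposited values, per the file headers. The submitters' processing notes name Bowtie 0.12.9, SAMtools 0.1.19, bedtools 2.17.0 and build mm9. How peaks were called and replicates pooled is not stated in any source used here. Left ends were taken as 0-based, and printed starts count from 1. Only the 19 autosomes were compared. The 10 replicate lists of other factors and the inputs were not used here.

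Overlaps were computed with Python 3.11.15 and numpy 2.4.6, and intervals and exact permutation tests with SciPy 1.17.1, after tests on simulated data. The comparison, its lists and the rule for regions were chosen with earlier results of these data known. Regions were the 8 widest Menin peaks with MLL1, and 6 each of Menin without MLL1, MLL1 with Menin and MLL1 without Menin; all but the last needed both of a factor's own replicate lists. Gene lists had been planned, but no mm9 annotation was used, so regions are given by coordinates. Same-numbered replicates deviated together with a correlation of -0.00694 over 71055 regions, so numbers were not taken as pairs. That correlation is over regions and does not cover the measures of whole lists. The alternatives were other overlap rules, list lengths, widths and replicates, and the omission of chromosome starts, which was added after seeing the data.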

Additional observations from a re-analysis of the deposited data

Results flagged for a closer look

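Peaks outside the autosomes were not part of the comparison. The Menin list held 1116 peaks on chromosome X and the MLL1 list 97, and 61 (5.47%) and 71 (73.2%) of these met the other factor. On the mitochondrial genome there were 13 Menin and 15 MLL1 peaks, of which 12 and 11 met the other factor. The input samples were not analysed here, so no level over a control is given.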

How the results depend on the processing

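MLL1 at Menin (74.0%) was 72.2% when the overlap had to span 50% of the shorter peak, 76.6% within 500 bp, 85.1% with the wider 50% of each list, 79.7% with unions of the replicate lists, 96.3% with peaks of both replicates, 51.4% with a Menin list as short as that of MLL1, and 71.3 to 97.4% when 1 replicate was left out. Menin at MLL1 (8.16%) was 7.76, 10.1, 9.60, 11.1, 3.28, 39.9 and 1.35 to 17.1% in the same order. The values with 1 replicate left out came from replicate lists, so they are to be set beside the 79.7 and 11.1% of the unions. With lists of equal length the differences at ING1 and LSD1 reversed to 7.5 and 18.2 points. At Wdr5 the difference shrank to 0.109 points, with the Menin and MLL1 values interleaved. For Menin with against without MLL1, the odds ratio at Wdr5 was 16.0 by the 50% overlap rule, 10.6 with peaks of both replicates and 3.74 within width classes. At ING1 it was 19.9, 4.23 and 2.91, and 11.2 with the wider 50%; at LSD1 14.5, 1.88 and 2.15, and 7.24. At MLL3 it was 1.18 by the 50% rule, and reversed to 0.96 with the wider 50% and 0.72 within width classes. For MLL1 with against without Menin, the wider 50%, both replicates and width classes gave 16.4, 24.0 and 6.89 at Wdr5, and 153.2, 13.1 and 19.9 at ING1. LSD1 gave 8.28 with both replicates and 20.03 within width classes. MLL3 gave 0.82 by the 50% rule, 1.10 (reversed) with the wider 50%, 0.17 with both replicates and 0.81 within width classes. These both-replicates values rest on 12 MLL1 peaks without a Menin peak of both replicates. The pooled Menin list met 322 of the 324 MLL1 peaks of both replicates. For either factor, the both-replicates class without includes peaks that met the pooled list of the other factor. With the same 12 peaks the myotube LSD1 list also reversed, to 0.49. Apart from construction (shorter lists, fewer peaks), the cause was not tested.

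With a replicate block by number, the paired differences are the same (16979 peaks, for example) and the smallest two-sided exact permutation p is 0.5. Over regions the numbers gave no sign of pairing. Over whole lists, every measure compared moved the same way from replicate 1 to replicate 2 in both factors. Peaks per list went from 22868 to 15648 for Menin and from 4098 to 460 for MLL1, for example. Whether same-numbered replicates belong together was not tested. Depth limits all counts, since no read numbers accompany the lists.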

Other observations

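Sites that Menin and MLL1 shared in myoblasts were met more often than the unshared ones by lists of other factors from myotubes, the fused cells. The myotube ING1 list met 54.3% of myoblast Menin peaks with MLL1 and 6.75% of those without, and the myotube list of Sin3A, the scaffold of a histone deacetylase complex, met 60.5 and 8.47%. Myotube LSD1 met 33.4 and 7.48%. Within width classes the odds ratios were 2.70, 2.84 and 1.68, and each direction held on 19 of 19 autosomes. Of MLL1 peaks with and without Menin, 47.8 and 3.85% met myotube ING1, 54.5 and 6.21% met Sin3A, and 26.7 and 3.37% met myotube LSD1.

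MLL1 peaks met Menin least often on chromosome 15, at 63.6% of 760 peaks, and most often on chromosome 7, at 83.6% of 214; the median of the autosomes was 75%. The chromosome 15 peaks without Menin numbered 277, 12.1% of all MLL1 peaks without Menin, while chromosome 15 held 7.42% of those with it.

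Menin peaks under 200 bp numbered 191, and 40 of them (20.9%) met MLL1, against 2.08% of those from 200 to 500 bp. MLL1 peaks under 200 bp numbered 124, and 45 (36.3%) met Menin, against 60.3% of those from 200 to 500 bp, so the narrowest were higher for Menin and lower for MLL1. Few of these narrowest peaks met a replicate list of their own factor, 26 (13.6%) for Menin and 32 (25.8%) for MLL1.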
